A study of Mus musculus with 6 samples.

Results

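The 8 genes described here are Cdkn1c, Grb10, Igf2r, Ndn, Gnas, Plagl1, Peg3 and Mest, chosen by name as imprinted genes linked to the growth and the resting state of stem cells, out of 21878 genes listed for each library. All 8 were listed. RNA sequencing was done on long-term hematopoietic stem cells (LT-HSCs) sorted from the bone marrow of wild-type (WT) mice as Lin-c-Kit+Sca1+CD34-CD135- cells. Mice were fed a serine/glycine-free diet (SGFD, 3 libraries) or a control diet (CD, 3 libraries) for 3 months, and both groups were housed free of specific pathogens. Strain, age and sex are not given in the sources used here. Whether the libraries of a diet came from separate mice is also not given, and each p-value below measures only how much these libraries vary, which may be technical.

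Imprinted genes are transcribed mainly from the copy inherited from 1 parent, because DNA methylation laid down in the egg or the sperm marks the parental copies and is kept through later divisions. Several of them act on growth in opposite ways: many maternally expressed genes restrain it and many paternally expressed genes favour it. In mice, adult LT-HSCs divide rarely, and the imprinted gene Cdkn1c is known to be needed for this resting state. The values below sum both parental copies, so which copy was transcribed was not measured.

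Grb10, Igf2r and Ndn were lower in SGFD than in CD cells, at between 0.416 and 0.511 of the CD level, and in each of them the 3 SGFD libraries lay below the 3 CD libraries. Such a gap was common, being found in 45.5% of all tested genes. Cdkn1c was lower by less, with groups that overlapped, and its call depended on single libraries and on the scaling. Gnas, by far the highest of the 8, did not pass the test. Plagl1, Peg3 and Mest had almost no reads under either diet.

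The promoters of the 3 genes with the clearest difference, and of Gnas as the highly expressed gene that did not pass, are shown from the RefSeq table of build GRCm38.p6. Each is 300 bases long, spans the annotated transcript start and is written 5′ to 3′ on the strand of the gene. Capitals mark matches, on either strand, to TGCCGC, the hexamer bound by the imprint-keeping factor ZFP57, or to CACGTG, the E-box; no 2 matches overlapped. The Grb10 window is chr11:12037371-12037670, minus strand, at the upstream start of the gene. The Igf2r window is chr17:12769657-12769956, minus strand. The Ndn window is chr7:62348027-62348326, plus strand. The Gnas window is chr2:174329756-174330055, plus strand, at the start of the transcripts that encode the stimulatory G protein alpha subunit.
Grb10: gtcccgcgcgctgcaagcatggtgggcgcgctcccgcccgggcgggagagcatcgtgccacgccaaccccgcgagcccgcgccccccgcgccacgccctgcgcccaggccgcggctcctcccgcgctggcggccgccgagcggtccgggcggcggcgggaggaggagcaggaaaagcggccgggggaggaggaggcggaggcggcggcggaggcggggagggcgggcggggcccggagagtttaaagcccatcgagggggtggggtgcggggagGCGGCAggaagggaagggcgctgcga
Igf2r: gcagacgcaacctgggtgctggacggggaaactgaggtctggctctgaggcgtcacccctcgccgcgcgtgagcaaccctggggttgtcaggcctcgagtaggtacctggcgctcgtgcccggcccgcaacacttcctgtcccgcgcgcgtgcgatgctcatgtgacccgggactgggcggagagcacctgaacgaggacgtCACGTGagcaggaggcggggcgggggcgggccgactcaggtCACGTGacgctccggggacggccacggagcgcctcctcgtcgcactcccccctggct
Ndn: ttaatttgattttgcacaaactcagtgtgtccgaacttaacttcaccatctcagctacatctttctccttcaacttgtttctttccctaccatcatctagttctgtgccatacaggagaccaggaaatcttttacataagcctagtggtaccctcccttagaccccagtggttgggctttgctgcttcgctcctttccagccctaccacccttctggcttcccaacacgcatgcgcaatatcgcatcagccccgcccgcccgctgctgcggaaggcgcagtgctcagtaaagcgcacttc
Gnas: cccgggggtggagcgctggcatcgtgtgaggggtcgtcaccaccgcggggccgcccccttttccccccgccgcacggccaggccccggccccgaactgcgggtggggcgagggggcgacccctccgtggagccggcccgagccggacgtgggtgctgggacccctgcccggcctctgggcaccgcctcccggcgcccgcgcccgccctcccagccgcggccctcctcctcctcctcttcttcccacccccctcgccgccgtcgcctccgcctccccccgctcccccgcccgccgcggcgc

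These windows differ in CpG content, the dinucleotide at which DNA is methylated. The Grb10 window holds 45 CpG, more than 98.1% of 32851 promoter windows in the table, whose median is 7. The Gnas window holds 40 CpG, more than 96.1% of windows, and the Igf2r window 34, more than 92.3%. The Ndn window holds 11 CpG, more than 58.6% of windows, so CpG content of the printed windows did not separate Grb10, Igf2r and Ndn from Gnas. Other starts of these genes were not printed: another Grb10 window holds 9 CpG, and the other Gnas windows hold 16, 27 and 28. Cdkn1c matched no window. The printed Grb10 window has 1 match to the ZFP57 hexamer, which occurs in 11.6% of all windows, and the other Grb10 window has none. The Igf2r window has 2 E-boxes, a motif found in 7.15% of windows. TGACGTCA, the cyclic AMP response element, was searched as well; it occurs in 1.79% of windows and in none of those printed. A match is a run of letters and not evidence of binding, and methylation was not measured.

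Values are taken as FPKM, fragments divided by gene length and by library total. Whole fragments could be recovered from them, up to a factor for each gene, and came to between 18208509 and 19304007 per library. Differences are log2 of FPKM + 1, SGFD minus CD, which understates the change of low genes, and were tested with limma over the 10620 genes that reached 1 FPKM in 3 or more of the 6 libraries. Of these, 59.4% passed an adjusted p of 0.05, with 41.8% lower and 17.7% higher in SGFD, and the median difference of all tested genes was -0.13. The 5 genes Cdkn1c, Grb10, Igf2r, Ndn and Gnas had at least 1 FPKM in all 6 libraries, so their place among the tested genes did not rest on 1 diet. Of them 4 were called lower and 0 higher, or 4 of all 8 genes.

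The sorted cells differed in their marker genes between the diets. Of 12 tested LT-HSC markers, 9 were lower in SGFD, beside 41.8% lower and 17.7% higher of all tested genes, and Slamf1, Vwf and Ctnnal1 did not pass. With the trend on annotated length described below removed, 8 were lower and 1 higher, beside 22.3% lower and 24.7% higher of all tested genes. The higher one was Vwf (0.39, limma adjusted p = 0.00902). The Tek and Ly6a calls did not hold with median-ratio scaling (limma adjusted p = 0.245 for Tek and 0.645 for Ly6a). The 13 markers summed to between 217 and 225 FPKM in SGFD and between 370 and 373 FPKM in CD libraries, with Kit and Ly6a the largest parts. All 7 granulocyte-monocyte progenitor markers were higher, summing to between 3452 and 3836 FPKM in SGFD and between 871 and 900 FPKM in CD libraries, as were all 7 monocyte markers, at 243 to 252 FPKM in SGFD and 71.9 to 72.4 FPKM in CD libraries. Erythroid markers summed to between 96.9 and 102 FPKM in SGFD and between 214 and 221 FPKM in CD libraries, with 3 of 4 tested lower. Neutrophil markers summed to 36.7 to 39.7 FPKM in SGFD and 12.2 to 12.4 FPKM in CD libraries, and macrophage markers to 2.42 to 2.92 FPKM in SGFD and 14.4 to 15.8 FPKM in CD libraries. All 5 tested neutrophil markers were higher and all 5 tested macrophage markers lower, but 2 of these neutrophil markers passed the filter through the SGFD libraries alone and 4 of these macrophage markers through the CD libraries alone, so their direction was set by the filter. B cell markers summed to 25.5 to 26.4 FPKM in SGFD and 27.7 to 37.1 FPKM in CD libraries, nearly all of it Cd79b, at 24.0 ± 0.339 FPKM in SGFD and 23.1 ± 2.96 FPKM in CD cells. The other B cell markers were low, such as Igll1 at 0.256 ± 0.122 FPKM in SGFD and 2.57 ± 0.415 FPKM in CD cells, Ebf1 at 0.0186 ± 0.0247 FPKM in SGFD and 0.437 ± 0.0520 FPKM in CD cells, and Pax5 at 0.00654 ± 0.00658 FPKM in SGFD and 0.280 ± 0.0236 FPKM in CD cells (SD, n = 3 each). The gate excluded CD34 and CD135, yet Cd34 mRNA averaged 429 ± 8.58 FPKM in SGFD and 471 ± 15.4 FPKM in CD libraries, and Flt3, which encodes CD135, averaged 90.5 ± 3.72 FPKM in SGFD and 114 ± 1.19 FPKM in CD libraries (SD, n = 3 each). In such bulk samples, fewer cells of a type and less RNA per cell cannot be told apart, and the part of this shift in the results below was not tested.

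Several imprinted genes are known to be high in fibroblast-like cells, so markers of marrow stroma were measured too. Only Angpt1 and Pdgfrb of 11 stroma markers passed the filter, with Angpt1 called lower, at 60.4 ± 0.946 FPKM in SGFD and 109 ± 1.77 FPKM in CD cells, and Pdgfrb called higher, at 18.2 ± 0.701 FPKM in SGFD and 15.7 ± 1.05 FPKM in CD cells (SD, n = 3 each). The Pdgfrb call did not hold without SGFD replicate 1 (limma adjusted p = 0.0667), CD replicate 1 (0.0826) or CD replicate 2 (0.0513), nor with libraries scaled to an equal sum (0.382). Lum was at 0 in all 6 libraries. Cxcl12 averaged 0.0552 ± 0.0165 FPKM in SGFD and 0.516 ± 0.0873 FPKM in CD cells, and Dcn 0.106 ± 0.0496 FPKM in SGFD and 0.0589 ± 0.0811 FPKM in CD cells (SD, n = 3 each). The 11 stroma markers summed to between 78.5 and 80.2 FPKM in SGFD and between 124 and 127 FPKM in CD libraries, nearly all of it Angpt1 and Pdgfrb. The other 9 were under the filter, so this sum follows Angpt1 and Pdgfrb and does not measure an amount of stroma. Endothelial markers summed to between 57.6 and 60.9 FPKM in SGFD and between 74.2 and 79.0 FPKM in CD libraries. Nearly all of this was Pecam1, called higher, and Tie1 and Emcn, both called lower. Cdh5, Kdr, Flt4 and Stab2 were under the filter, so the endothelial sum does not speak for them. Cdh5 averaged 0.148 ± 0.0558 FPKM in SGFD and 0.0479 ± 0.00737 FPKM in CD cells. Stab2 averaged 0.0105 ± 0.00693 FPKM in SGFD and 0.119 ± 0.0487 FPKM in CD cells (SD, n = 3 each). The part of either cell type in the results below was not tested.

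**Figure D1:**
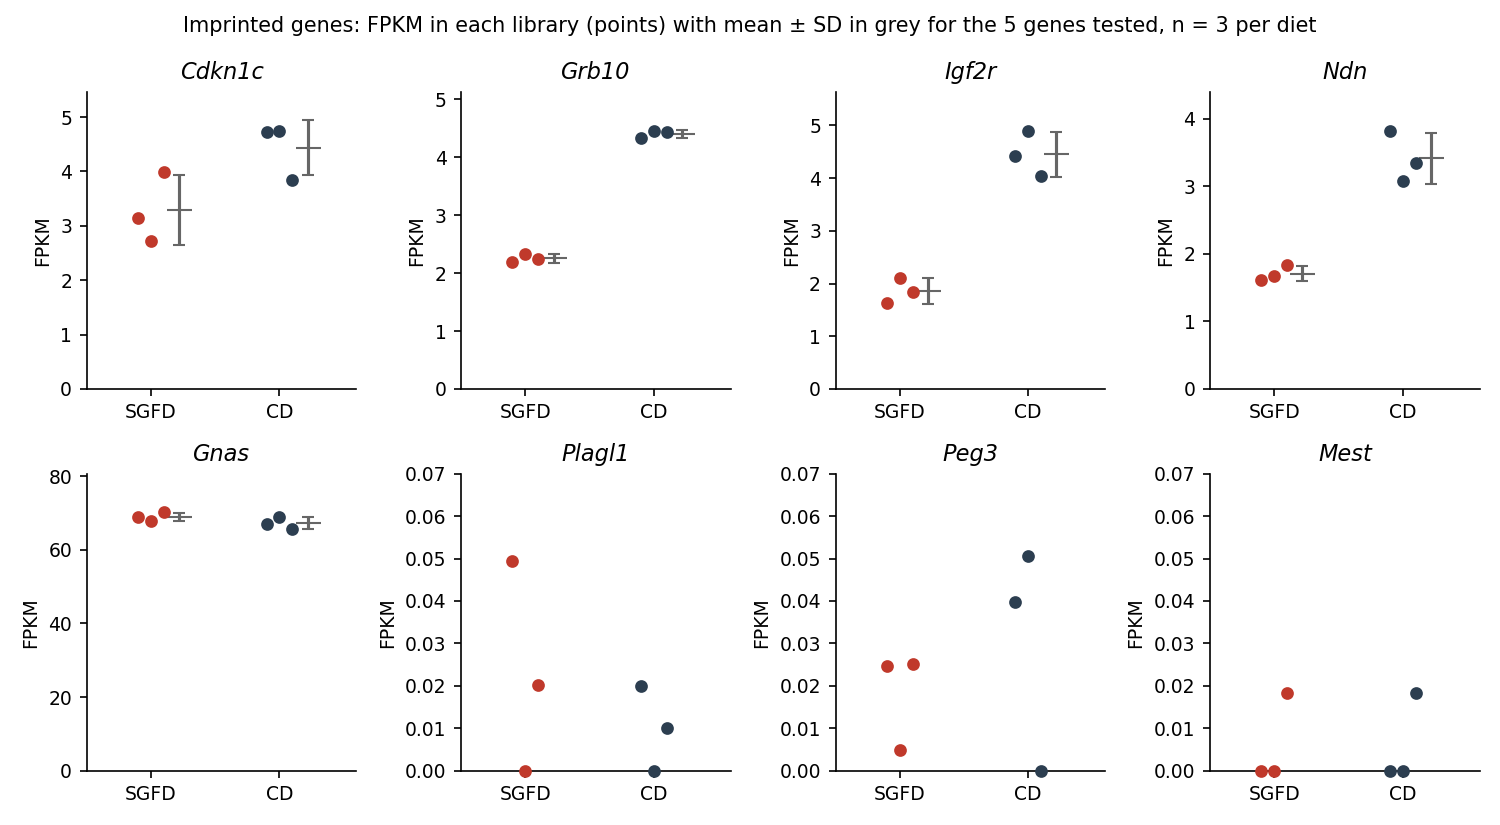
FPKM of the 8 imprinted genes in each library (points, SGFD left and CD right, each panel with its own scale from 0) and, for the 5 tested genes, mean ± SD (n = 3 each). The SGFD points of Grb10, Igf2r and Ndn lie below all CD points, those of Cdkn1c and Gnas overlap, and Plagl1, Peg3 and Mest stay at or near 0.

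Cdkn1c, on chromosome 7 at 143458339 to 143461059 (GRCm38.p6, as for all gene positions here), encodes p57Kip2, an inhibitor of cyclin-dependent kinases that is expressed from the maternal copy. It had 3.15, 2.72 and 3.99 FPKM in SGFD replicates 1 to 3, against 4.72, 4.75 and 3.85 FPKM in CD replicates 1 to 3. The third SGFD library lay above the third CD library, so the groups overlapped. The means were 3.29 ± 0.645 FPKM in SGFD and 4.44 ± 0.511 FPKM in CD cells (SD, n = 3 each), a ratio of 0.740. The log2 difference was -0.35 ± 0.12 (SE), with a limma adjusted p of 0.0256, or -0.22 relative to the median of all genes. The call did not hold when SGFD replicate 1 (limma adjusted p = 0.0735) or 2 (0.08), or CD replicate 1 (0.0847) or 2 (0.0819), was left out, nor after quantile normalization, where the difference was -0.08 (limma adjusted p = 0.65). Recovered fragments were 121, 109 and 151 in SGFD replicates 1 to 3 and 181, 179 and 145 in CD replicates 1 to 3.

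Grb10, on chromosome 11 at 11930499 to 12037428, encodes an adaptor that binds the activated insulin and IGF1 receptors and dampens their signal; in most mouse tissues it is expressed from the maternal copy. It had 2.19, 2.33 and 2.24 FPKM in SGFD libraries, against 4.33, 4.46 and 4.44 FPKM in CD libraries. The groups were far apart relative to their spread, and each was tight. The means were 2.25 ± 0.0732 FPKM in SGFD and 4.41 ± 0.0719 FPKM in CD cells (SD, n = 3 each), a ratio of 0.511. Grb10 fell by 0.73 ± 0.08 (SE) on the log2 scale, with a limma adjusted p of 4.4e-05, and 3.2% of tested genes had a difference further below 0. Its recovered fragments were 110, 122 and 111 in SGFD and 217, 220 and 219 in CD libraries. The gene length that these fragments imply is 2618 bases, against 5061 bases for the annotated transcript, so the true number of fragments may be a multiple.

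Igf2r, on chromosome 17 at 12682406 to 12769706, encodes the cation-independent mannose 6-phosphate receptor, which carries lysosomal enzymes and takes up IGF2 for degradation; in mice it is expressed from the maternal copy in most tissues. It had 1.63, 2.11 and 1.83 FPKM in SGFD libraries, against 4.42, 4.90 and 4.05 FPKM in CD libraries. Every SGFD library held less than any CD library. The means were 1.85 ± 0.241 FPKM in SGFD and 4.46 ± 0.427 FPKM in CD cells (SD, n = 3 each), a ratio of 0.416 and the lowest of the 5 tested genes. Igf2r fell by 0.94 ± 0.10 (SE) on the log2 scale, with a limma adjusted p of 3.89e-05, and 0.923% of tested genes had a difference further below 0. Its fragments were 279, 376 and 309 in SGFD and 756, 825 and 681 in CD libraries.

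Ndn, on chromosome 7 at 62348277 to 62349928, encodes necdin, a MAGE family protein that binds p53 and E2F1 and is expressed from the paternal copy. It had 1.61, 1.67 and 1.83 FPKM in SGFD libraries, against 3.82, 3.08 and 3.34 FPKM in CD libraries. The groups did not overlap, although the CD libraries were more spread. The means were 1.70 ± 0.113 FPKM in SGFD and 3.42 ± 0.376 FPKM in CD cells (SD, n = 3 each), a ratio of 0.497. Ndn fell by 0.71 ± 0.09 (SE) on the log2 scale, with a limma adjusted p of 0.000152. Its fragments were few, at 51, 55 and 57 in SGFD and 121, 96 and 104 in CD libraries. Thus 3 of the 5 tested genes had SGFD libraries all below the CD libraries, beside 45.5% of all tested genes; 19.6% had SGFD libraries all above the CD libraries, and in 65.2% the diets did not overlap either way.

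Gnas, on chromosome 2 at 174284320 to 174346744, encodes the stimulatory G protein alpha subunit, which couples hormone receptors to cyclic AMP, and has further promoters with transcripts of their own; the main transcript is expressed from both copies in most tissues. It had 68.8, 67.7 and 70.1 FPKM in SGFD libraries, against 67.1, 69.0 and 65.7 FPKM in CD libraries. The groups overlapped. The log2 difference was 0.03 ± 0.04 (SE), with a 95% interval from -0.06 to 0.12 and a limma adjusted p of 0.502. Its sign depended on the scaling: with the values of each library scaled to an equal sum it was -0.11 (limma adjusted p = 0.0252), and with median-ratio scaling it was 0.18 (limma adjusted p = 0.0081), while the median of all genes moved to -0.27 and 0.01 under these scalings. The interval therefore covers only the spread between libraries. The deposited values imply a gene length of 9404 bases for Gnas, against 3947 bases for the longest annotated transcript, which lowers its FPKM; the transcripts of its different promoters are not separated.

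The other 3 genes stayed under the filter and were not tested. Plagl1, on chromosome 10 at 13090832 to 13131694, encodes a zinc finger transcription factor expressed from the paternal copy, and had 0.0494, 0 and 0.0201 FPKM in SGFD libraries and 0.0199, 0 and 0.0101 FPKM in CD libraries. Peg3, on chromosome 7 at 6703892 to 6730462, encodes a large zinc finger protein and had 0.0247, 0.00476 and 0.0252 FPKM in SGFD libraries and 0.0397, 0.0505 and 0 FPKM in CD libraries. Mest, on chromosome 6 at 30733506 to 30748466, encodes a protein of the hydrolase fold and had a single recovered fragment in the third library of each diet. Over the 3 libraries Plagl1 had 7 fragments in SGFD and 3 in CD, and Peg3 had 11 in SGFD and 18 in CD. At this depth no difference could be seen in any of them, and both diets overlapped.

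The genes were also set against each other within each library. The ratio of Ndn to Grb10 was 0.735, 0.714 and 0.814 in SGFD libraries and 0.883, 0.691 and 0.752 in CD libraries, with overlap. The ratio of Igf2r to Grb10 was 0.744, 0.903 and 0.816 in SGFD libraries and 1.02, 1.10 and 0.912 in CD libraries, without overlap. The ratios of Cdkn1c to the other 3 were higher in every SGFD library: its ratio to Igf2r was 1.94, 1.29 and 2.18 in SGFD libraries and 1.07, 0.968 and 0.950 in CD libraries, and its ratio to Grb10 was 1.44, 1.17 and 1.78 in SGFD libraries and 1.09, 1.06 and 0.866 in CD libraries. As a share of Gnas, Grb10 made up 3.27 ± 0.149% in SGFD and 6.56 ± 0.178% in CD cells, and Igf2r 2.70 ± 0.382% in SGFD and 6.62 ± 0.470% in CD cells (SD, n = 3 each). These ratios do not depend on how libraries are scaled to each other, but they can shift with the gene length trend described below. With the trend on annotated length removed, Igf2r was -0.55 and Grb10 -0.50 on the log2 scale. With the trend on implied length removed the order turned, at -0.58 for Igf2r and -0.67 for Grb10. The ratios were not tested, and the Gnas shares carry the long length used for Gnas.

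In CD cells the level per length ran from Gnas down to Igf2r, Cdkn1c and Grb10, which lay within each other's spread at 4.46 ± 0.427, 4.44 ± 0.511 and 4.41 ± 0.0719 FPKM, and then to Ndn at 3.42 ± 0.376 FPKM (SD, n = 3 each). In SGFD cells Cdkn1c came next after Gnas, every library lying above those of Grb10, Igf2r and Ndn. Among these last 3, Igf2r and Ndn overlapped, as the 3 Igf2r libraries spanned 1.63 to 2.11 FPKM and the 3 Ndn libraries 1.61 to 1.83 FPKM. The mean of Igf2r was above that of 9.66% of tested genes in SGFD and of 20% in CD cells, so these are genes of low level.

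The size of a difference moved with gene length across all genes, and the genes here differ in length. Over 10 bins of annotated transcript length, the median log2 difference of all tested genes decreased from bin to bin, being 0.14 in the bin of the shortest genes (median 949 bases) and -0.38 in the bin of the longest (median 7992 bases). Igf2r, annotated at 8887 bases, stood at -0.94 in this last bin. Grb10 stood at -0.73 in a bin with a median of -0.30, and Cdkn1c at -0.35 in a bin with a median of -0.02. Ndn, annotated at 3694 bases, stood at -0.71 in a bin with a median of -0.18. The deposited values imply 1652 bases for Ndn, which is also the span of its RefSeq position, in a bin with a median of 0.04. With the trend on annotated length of each library removed, Igf2r was -0.55, Grb10 -0.50 and Ndn -0.55, and with the trend on implied length removed Igf2r was -0.58, Grb10 -0.67 and Ndn -0.73. All 3 kept a limma adjusted p under 0.05 both ways. The implied length of Grb10, 2618 bases, may be a fraction of the true one. It places Grb10 in a bin with a median of -0.07, so its -0.67 may be corrected too little. With the annotated trend removed, Gnas was 0.21 with a limma adjusted p of 0.0039. The part of RNA quality or library preparation in this trend was not tested.

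**Figure D2:**
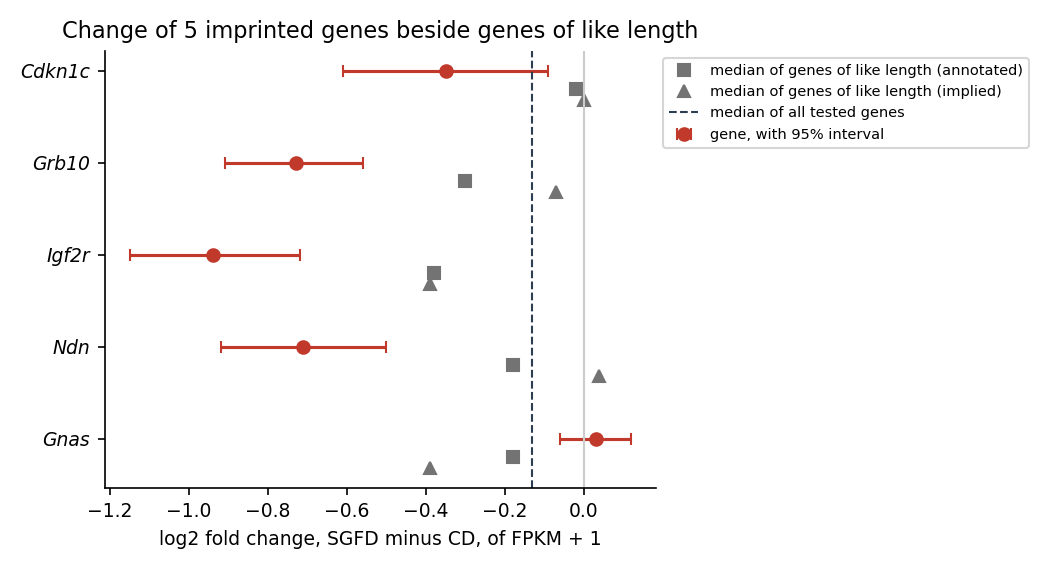
Log2 difference of FPKM + 1, SGFD minus CD, for the 5 tested genes (red points with 95% intervals), with the median of tested genes in the same length bin, from annotated lengths (squares) or from lengths implied by the deposited values (triangles), and the median of all tested genes, -0.13 (dashed line). Cdkn1c, Grb10, Igf2r and Ndn lie left of both length medians, and Gnas lies right of them. The triangle of Grb10 rests on an implied length that may be too short.

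**Figure D3:**
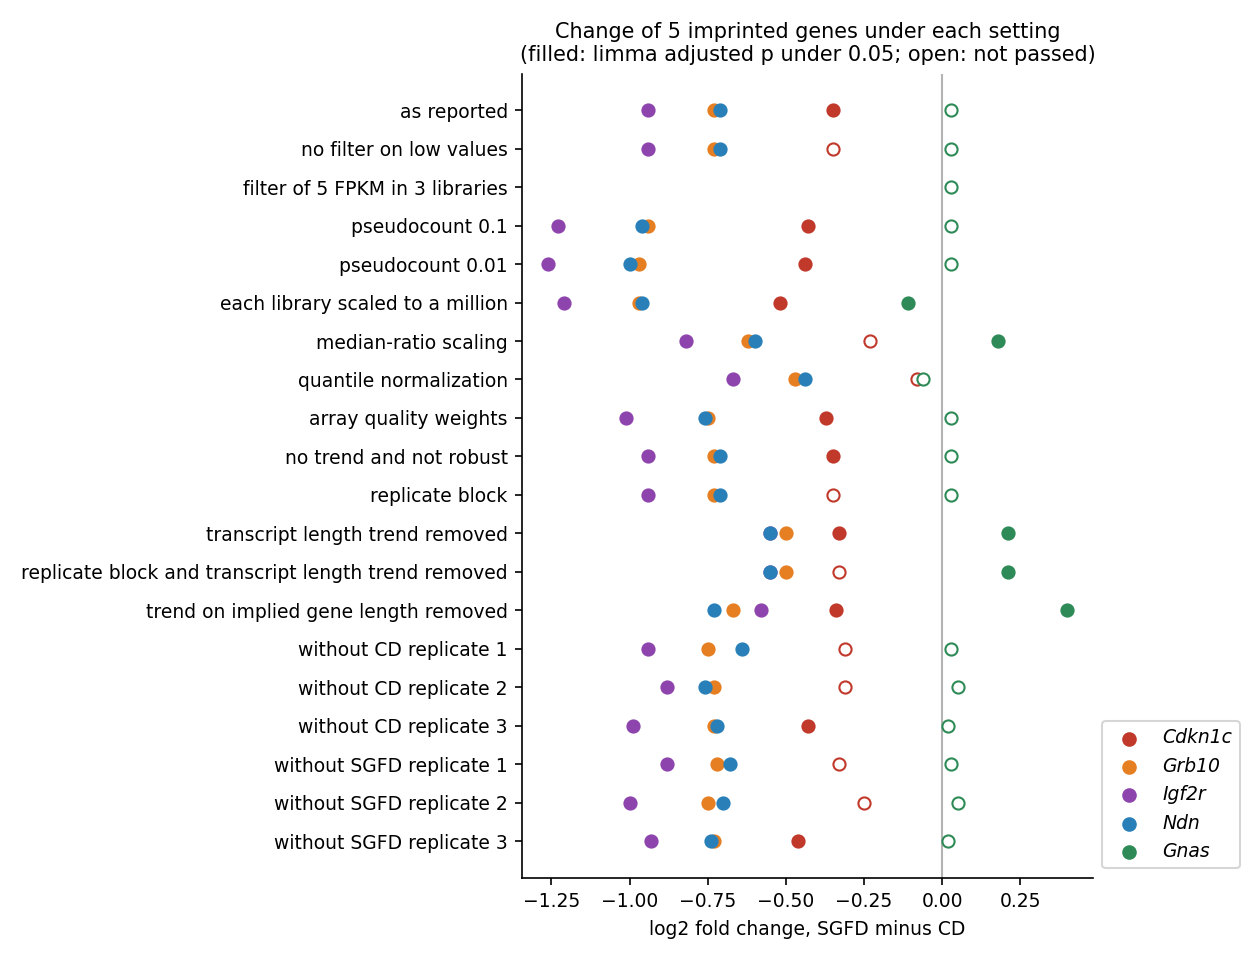
Log2 difference, SGFD minus CD, of the 5 tested genes under each processing setting (rows), with filled points past a limma adjusted p of 0.05 and open points not. All points of Igf2r, Grb10 and Ndn are filled, and those nearest to 0 are -0.55 for Igf2r, -0.47 for Grb10 and -0.44 for Ndn; Igf2r is hidden under Ndn where both are -0.55, and these genes have no value at the 5 FPKM filter.

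Imprinted genes lie in clusters, so the listed imprinted genes within 2.5 Mb of the 8 genes were described as well. This choice was made after values had been seen, and whether these neighbours are imprinted in the sorted cells was not measured. Of 27 such neighbours 11 were tested, and 8 were lower and 0 higher in SGFD, beside the 41.8% of all tested genes that were lower. Most of these lie around Cdkn1c, where 7 of 8 tested neighbours were lower. Tspan32, a tetraspanin gene, averaged 42.3 ± 0.919 FPKM in SGFD and 57.3 ± 0.863 FPKM in CD cells, and Cd81, the tetraspanin gene beside it, 54.3 ± 1.07 FPKM in SGFD and 73.7 ± 1.06 FPKM in CD cells (SD, n = 3 each). Both fell by 0.43 on the log2 scale, with limma adjusted p of 2.41e-05 for Tspan32 and 1.71e-05 for Cd81. Osbpl5, a lipid-binding protein gene, averaged 3.46 ± 0.171 FPKM in SGFD and 5.71 ± 0.327 FPKM in CD cells and fell by 0.59 (limma adjusted p = 0.000165).

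Slc22a18, a transporter gene and the nearest neighbour of Cdkn1c, averaged 2.18 ± 0.110 FPKM in SGFD and 3.15 ± 0.213 FPKM in CD cells (limma adjusted p = 0.0033), and Dhcr7, a gene of cholesterol synthesis, 11.3 ± 0.201 FPKM in SGFD and 13.8 ± 0.665 FPKM in CD cells (SD, n = 3 each; limma adjusted p = 0.00367). In both, the SGFD libraries lay below the CD libraries, and both lost their calls with quantile normalization (limma adjusted p = 0.3 for Slc22a18 and 0.153 for Dhcr7), Dhcr7 also with median-ratio scaling (0.104). Phlda2, a growth-restraining gene of the placenta, had 1.97, 0.692 and 0.731 FPKM in SGFD libraries and 1.68, 3.03 and 1.81 FPKM in CD libraries, so that the groups overlapped although its limma adjusted p was 0.0334; the call did not hold without SGFD replicate 2 or 3 (limma adjusted p = 0.107 for each) or without CD replicate 2 (0.138) or 3 (0.0551). Nap1l4, a histone chaperone gene, differed by -0.13, which is the median of all genes, and its call did not hold without CD replicate 2 (limma adjusted p = 0.0555) or 3 (0.064), nor with median-ratio scaling, where the difference was 0.03. Tssc4 averaged 12.5 ± 1.06 FPKM in SGFD and 12.3 ± 1.04 FPKM in CD cells and did not pass (limma adjusted p = 0.827). With median-ratio scaling or quantile normalization, 4 of the 8 were lower in place of 7, where 25.6% and 24% of all tested genes were lower, and without CD replicate 2 or 3 the number was 5. Igf2, the growth factor that Igf2r clears, had 10 fragments over the 3 SGFD libraries and 51 over the 3 CD libraries, at 0.0347 ± 0.0166 FPKM in SGFD and 0.180 ± 0.0658 FPKM in CD cells, and was under the filter.

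**Figure D4:**
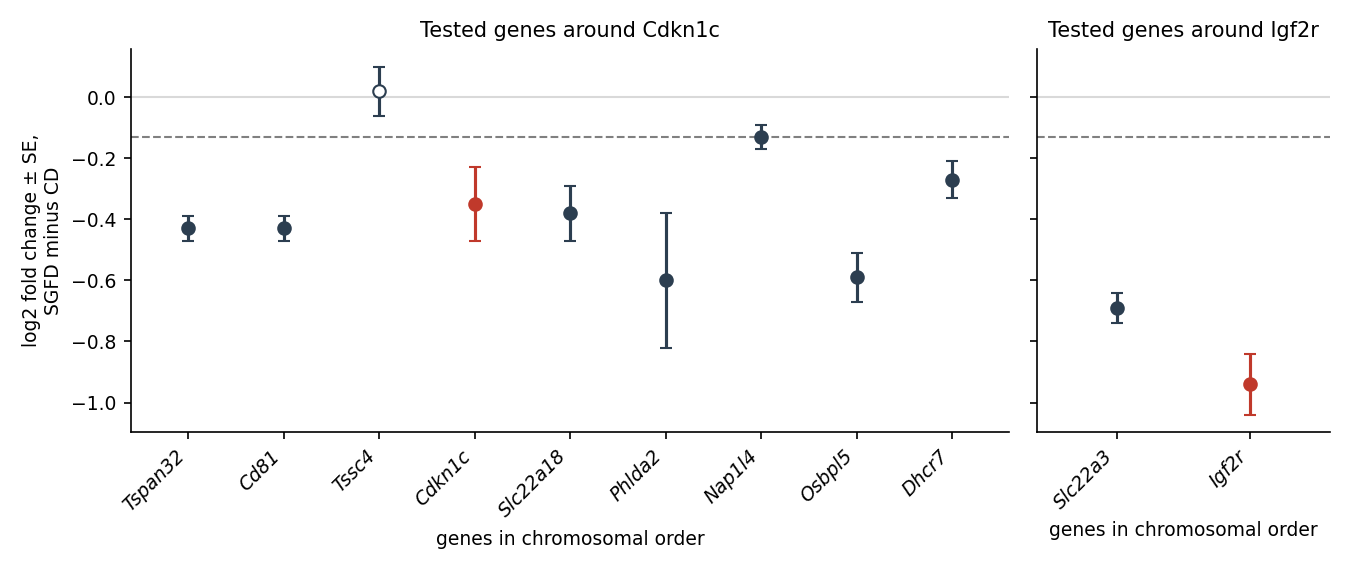
Log2 difference ± SE, SGFD minus CD, of tested imprinted genes around Cdkn1c (left) and Igf2r (right) in chromosomal order, with Cdkn1c and Igf2r in red, filled points past a limma adjusted p of 0.05, open points not, and the median of all tested genes as a dashed line. In both panels the points lie below 0 except Tssc4, and Nap1l4 lies at the median.

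Around Igf2r the one tested neighbour was Slc22a3, an organic cation transporter gene, with 29.2, 29.0 and 29.4 FPKM in SGFD libraries, against 51.0, 44.8 and 47.3 FPKM in CD libraries. The groups were well apart, and Slc22a3 fell by 0.69 ± 0.05 (SE) on the log2 scale (limma adjusted p = 5.46e-06). Slc22a2, next to it, was at 0 in all libraries. Near Ndn, Peg12 averaged 2.58 ± 0.641 FPKM in SGFD and 3.01 ± 0.203 FPKM in CD cells and did not pass (limma adjusted p = 0.248), while Magel2, Snrpn and Snurf were at 0 in all libraries. Copg2, which overlaps Mest and encodes a coatomer subunit, averaged 25.3 ± 0.664 FPKM in SGFD and 26.7 ± 0.750 FPKM in CD cells and did not pass (limma adjusted p = 0.189), although it was called lower with libraries scaled to an equal sum (-0.22, limma adjusted p = 0.00287). Zim1 and Usp29, beside Peg3, were at 0 in all libraries. The long noncoding RNAs H19, Meg3, Kcnq1ot1 and Airn were not analysed here.

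A wider list of 77 other imprinted genes held 68 that were listed and 34 that were tested. It includes the neighbours described above, so their 11 tested genes, of which 8 were lower, are counted here again. Among the 34, 21 were lower and 1 higher in SGFD, beside 41.8% lower and 17.7% higher of all tested genes. The median log2 difference of the 34 was -0.23, beside -0.13 for all genes. With the trend on annotated length removed, 12 were lower and 3 higher, with a median of -0.08; under that setting 22.3% of all tested genes were lower and 24.7% higher, with a median of -0.00. Ppp1r9a, a regulator of protein phosphatase 1, had 2.55, 3.37 and 2.58 FPKM in SGFD libraries, against 7.61, 6.57 and 7.09 FPKM in CD libraries. Its groups did not overlap and it fell by 1.08 (limma adjusted p = 1.73e-05). The gene called higher was Commd1, at 18.5 ± 1.71 FPKM in SGFD and 15.9 ± 0.402 FPKM in CD cells (SD, n = 3 each; limma adjusted p = 0.0316), which did not pass with the values of each library scaled to an equal sum (limma adjusted p = 0.416) or when replicate 1 or 3 of either diet was left out (0.0839 to 0.121).

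Factors that act on the methylation and chromatin of imprinted regions were measured as a list of 22 genes, of which 20 were tested. The median log2 difference of the 20 was -0.37. Among them 14 were lower and 0 higher, beside 41.8% lower and 17.7% higher of all tested genes. The 14 include Tet1, Tet2 and Tet3, whose products oxidise methylated cytosine and so lead to its removal, beside writers and keepers of methylation. Dnmt3a, a de novo DNA methyltransferase gene, averaged 9.56 ± 0.561 FPKM in SGFD and 15.8 ± 0.194 FPKM in CD cells (limma adjusted p = 2e-05). Zfp445, a zinc finger protein of imprint control, averaged 12.3 ± 1.42 FPKM in SGFD and 20.2 ± 0.856 FPKM in CD cells (limma adjusted p = 6.93e-05), and its relative Zfp57 had 0.617 ± 0.212 FPKM in SGFD and 1.31 ± 0.192 FPKM in CD cells, passing the filter through the CD libraries alone; its call did not hold with quantile normalization (limma adjusted p = 0.0611). Atrx, a chromatin remodeller gene, averaged 23.9 ± 2.02 FPKM in SGFD and 35.7 ± 0.703 FPKM in CD cells, and Tet1 2.46 ± 0.394 FPKM in SGFD and 4.74 ± 0.0587 FPKM in CD cells (SD, n = 3 each). Trim28, Dnmt1, Ctcf, Ehmt2, Daxx and Hdac1 did not pass, and the sign of each depended on the scaling. Dnmt1, the maintenance methyltransferase gene, was called lower with libraries scaled to an equal sum (-0.16, limma adjusted p = 0.00363) and higher with median-ratio scaling (0.13, limma adjusted p = 0.0202). With the trend on annotated length removed, 7 of the list were lower and 4 higher, with a median of -0.12, beside the 22.3% lower and 24.7% higher of all genes under that setting.

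Grb10 and Igf2r act on insulin and IGF signalling. Of 31 genes of that list, 16 were tested, with a median log2 difference of -0.27. Among the 16, 8 were lower and 3 higher, beside 41.8% lower and 17.7% higher of all tested genes. With the length trend removed the median became 0.04, and 1 was lower and 5 were higher. Under that setting 22.3% of all tested genes were lower and 24.7% higher. Nedd4, a ubiquitin ligase gene whose product binds GRB10, averaged 69.9 ± 4.14 FPKM in SGFD and 127 ± 2.11 FPKM in CD cells (limma adjusted p = 4.83e-07). Igf1r averaged 8.20 ± 0.727 FPKM in SGFD and 11.3 ± 0.606 FPKM in CD cells, and Insr 4.83 ± 0.539 FPKM in SGFD and 6.45 ± 0.120 FPKM in CD cells (SD, n = 3 each). Both receptors and Pik3r1, at 14.0 ± 1.37 FPKM in SGFD and 19.2 ± 0.521 FPKM in CD cells, lost their calls with the length trend removed (limma adjusted p = 0.723 for Igf1r, 0.667 for Insr and 0.143 for Pik3r1). Igfbp4, an IGF-binding protein gene, was higher at 371 ± 26.9 FPKM in SGFD, against 267 ± 7.29 FPKM in CD cells, and Plaur, the urokinase receptor gene, at 30.6 ± 6.01 FPKM in SGFD, against 15.6 ± 2.36 FPKM in CD cells. M6pr, which encodes the smaller mannose 6-phosphate receptor, averaged 116 ± 1.31 FPKM in SGFD and 108 ± 2.59 FPKM in CD cells, so Igf2r was 1.59 ± 0.215% of M6pr in SGFD and 4.14 ± 0.462% in CD cells (SD, n = 3 each). The call of M6pr as higher (limma adjusted p = 0.0294) did not hold without SGFD replicate 1 (0.0955), CD replicate 2 (0.118) or CD replicate 3 (0.0832), nor with libraries scaled to an equal sum, where its difference was -0.03.

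Cdkn1c was set beside the other CDK inhibitors and the proteins that they act on. Of 21 genes, 19 were tested, with a median log2 difference of -0.12. Among the 19, 7 were lower and 5 higher, beside 41.8% lower and 17.7% higher of all tested genes. With the length trend removed, 3 were lower and 6 higher, with a median of 0.10. Under that setting 22.3% of all tested genes were lower and 24.7% higher. With median-ratio scaling 3 were lower and 7 higher, with a median of 0.01, where 25.6% of all tested genes were lower and 29.8% higher. Cdkn1a, which encodes p21, had 92.9, 102 and 79.6 FPKM in SGFD libraries, against 31.7, 27.7 and 27.8 FPKM in CD libraries. It rose by 1.62 ± 0.08 (SE) on the log2 scale (limma adjusted p = 2.69e-07), so that the ratio of Cdkn1a to Cdkn1c was 29.5, 37.4 and 19.9 in SGFD libraries and 6.71, 5.84 and 7.23 in CD libraries. Cdkn1b, which encodes p27, averaged 28.4 ± 5.12 FPKM in SGFD and 29.3 ± 1.36 FPKM in CD cells and did not pass (limma adjusted p = 0.654), although it was called lower without SGFD replicate 2 (-0.19, limma adjusted p = 0.0192). Among the cyclins, Ccnd1 averaged 6.37 ± 0.340 FPKM in SGFD and 14.7 ± 1.49 FPKM in CD cells, Ccnd2 31.4 ± 1.56 FPKM in SGFD and 46.3 ± 1.51 FPKM in CD cells, and Ccne1 was higher at 7.79 ± 0.653 FPKM in SGFD, against 4.34 ± 0.220 FPKM in CD cells (SD, n = 3 each).

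Necdin relatives and partners made a list of 13 genes, of which 11 were tested. Among the 11, 5 were lower and 1 higher, beside 41.8% lower and 17.7% higher of all tested genes. The median log2 difference of the list was -0.14 and became 0.01 with the length trend removed. Maged1 averaged 21.6 ± 0.277 FPKM in SGFD and 30.6 ± 1.89 FPKM in CD cells (limma adjusted p = 6.16e-05), and Mageh1 2.32 ± 0.739 FPKM in SGFD and 4.85 ± 1.16 FPKM in CD cells (limma adjusted p = 0.00183). Maged2 averaged 5.40 ± 0.180 FPKM in SGFD and 7.50 ± 0.925 FPKM in CD cells, and Hif1a, a hypoxia response gene, 13.7 ± 0.900 FPKM in SGFD and 16.8 ± 0.889 FPKM in CD cells; Maged2 lost its call with quantile normalization and Hif1a also with the length trend removed. Trp53, which encodes the necdin partner p53, averaged 91.8 ± 5.69 FPKM in SGFD and 91.9 ± 3.76 FPKM in CD cells and did not pass (limma adjusted p = 0.966). It was called lower with libraries scaled to an equal sum (-0.15, limma adjusted p = 0.0439) and higher with median-ratio scaling (0.15, limma adjusted p = 0.0312).

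Around Gnas, 37 genes of stimulatory G protein and cyclic AMP signalling were listed and 30 tested. Among the 30, 18 were lower and 3 higher, beside 41.8% lower and 17.7% higher of all tested genes. The median log2 difference of the list was -0.21 and became -0.05 with the length trend removed. Ptger4, a prostaglandin E2 receptor gene that couples to Gnas, had 23.9, 27.0 and 24.4 FPKM in SGFD libraries, against 12.9, 11.7 and 12.2 FPKM in CD libraries. It rose by 0.98 (limma adjusted p = 1.78e-06), with groups far apart. Adcy9, an adenylyl cyclase gene, averaged 1.80 ± 0.195 FPKM in SGFD and 4.38 ± 0.247 FPKM in CD cells (limma adjusted p = 2.12e-05). Of the phosphodiesterase genes, which degrade cyclic AMP, Pde7a averaged 5.23 ± 0.0348 FPKM in SGFD and 8.65 ± 0.258 FPKM in CD cells, and Pde8a 2.03 ± 0.0683 FPKM in SGFD and 3.81 ± 0.258 FPKM in CD cells (SD, n = 3 each). Pde4b, the most abundant phosphodiesterase gene of the list, was higher, at 39.9 ± 7.91 FPKM in SGFD and 23.6 ± 0.758 FPKM in CD cells (SD, n = 3 each; limma adjusted p = 0.000327).

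**Figure D5:**
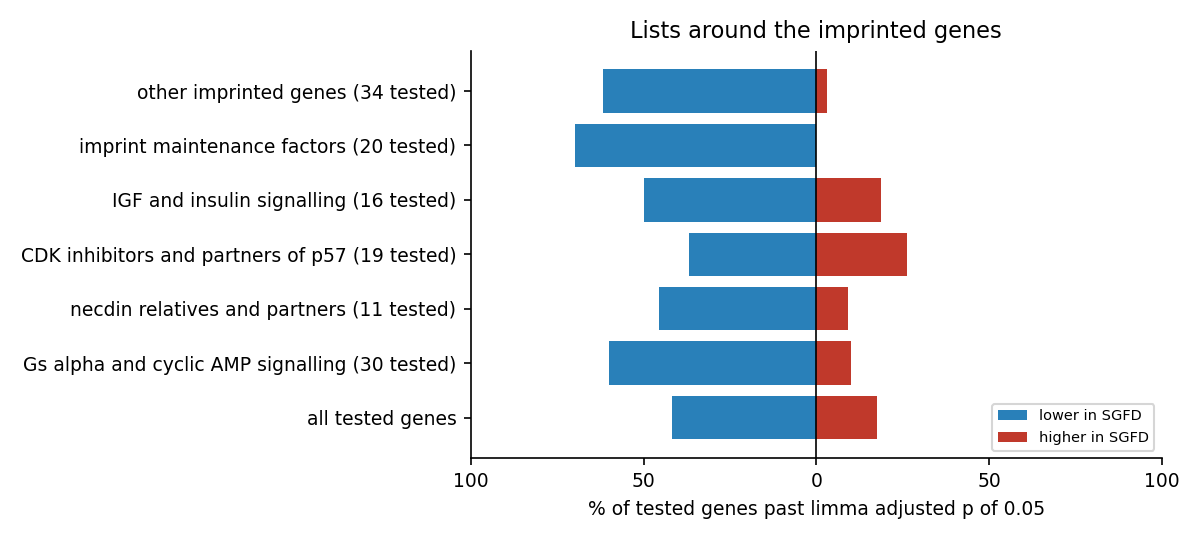
Percentage of tested genes lower (left, blue) and higher (right, red) in SGFD at a limma adjusted p of 0.05, for the 6 lists named on the axis and for all tested genes. All tested genes stand at 41.8% lower and 17.7% higher, and of these 6 lists the CDK inhibitor list alone has a share of lower genes under that.

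For the 3 imprinted genes with the smallest p, the genes closest in profile were found by Pearson's r of log2(FPKM + 1) over the 6 libraries. These points fall into the diet groups, so r mainly reflects the diet difference and is given as a description without a test. Igf2r was closest to Tle4, a transcriptional corepressor gene, and Ddx58, a viral RNA sensor gene (r = 0.998 for both). Grb10 was closest to Hdgfrp3 (0.9998) and Ep400, a chromatin remodeller gene (0.9996), and Ndn to Btbd7 (0.9996) and Ipo11, an importin gene (0.997). Such closeness is common here, as 1365 tested genes had r above 0.95 with Igf2r, 1733 with Grb10 and 1075 with Ndn.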

How the data were processed

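RNA was extracted from sorted cells with the RNeasy Micro Kit and libraries with the TruSeq Stranded mRNA kit (labels' protocols). Per the submitters' processing notes, the tools were fastp, HISAT2 and StringTie, and the builds are written as GRCm38 and mm10; versions are not given. The deposited values are taken as FPKM made by the authors, a unit read from the values because no source states it. In 15506 genes (99.98% of genes above 0) each value came within 0.02 of a whole number of fragments, which gave the fragments and implied gene lengths used here. Genes above 0 in a single library always meet this rule, and those above 0 in few libraries nearly always do. The share is therefore partly set by the search. Low genes rest on few fragments, so their precision is limited.

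From these values limma 3.58.1 in R 4.3.3 was run on log2(FPKM + 1), with trend and robust settings, for genes that reached 1 FPKM in 3 or more libraries. Tests were two-sided, and p-values were Benjamini-Hochberg adjusted over all 10620 genes, with a threshold of 0.05. Fits were tested on simulated data. Annotated lengths came from GENCODE transcripts for 99.2% of tested genes, and positions and promoters from RefSeq, where 7 of the 8 symbols matched a promoter. Rows with dates for names (27) stayed in the fit.

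Named were all 8 genes, up to 4 called genes of smallest p from each list, and the 2 genes nearest in profile for 3 of the 8; M6pr, Igf1r, Insr, Cdkn1b, Trp53, Zfp57, Commd1, Pde4b, Dnmt1, Igf2, the stroma and B cell markers, Cd34, Flt3 and the neighbours were added after values had been seen. The members and lists were chosen with earlier results of these data known. Alternatives were other filters, pseudocounts (0.1 and 0.01), 3 scalings, array quality weights, a replicate block, a variance model with no trend, removal of length trends and leaving out each library.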

Additional observations from a re-analysis of the deposited data

How the results depend on the processing

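Grb10, Ndn and Igf2r kept their direction and their calls in all 18 alternatives that could test them; the smallest differences were -0.47 for Grb10 and -0.44 for Ndn with quantile normalization, and -0.55 for Igf2r with the length trend removed. With a 5 FPKM filter only Gnas among the 8 was tested, so 0 were called lower. Cdkn1c lost its call in 9 of 18 alternatives, including no filter (limma adjusted p = 0.0621) and median-ratio scaling (-0.23, 0.136). Leaving out single libraries gave Cdkn1c -0.46 to -0.25 and Gnas 0.02 to 0.05.

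Gnas turned to -0.11 with libraries scaled to an equal sum and to -0.06 with quantile normalization (limma adjusted p = 0.212). It was called higher, making 1 member higher in place of 0, with median-ratio scaling (0.18) and with the annotated length trend removed (0.21, also with the block), and with the implied length trend removed (0.40, an alternative added after seeing the data); the cause was not tested. Across all genes, 1032 were higher with scaling to an equal sum and 3163 with median-ratio scaling; 2721 were lower with median-ratio scaling, 2552 with quantile normalization, 2346 with the length trend removed, 1992 with the block as well and 2286 with the implied trend removed. The share of calls that were higher was 29.7% as reported, 14% with scaling to an equal sum, 53.8% with median-ratio scaling, 47% with quantile normalization and 52.6% with the length trend removed. Leaving out 1 library gave 1596 to 1922 genes higher and 3588 to 4606 lower.

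Deviations from the diet mean correlated at -0.00677, -0.227 and -0.133 between same-numbered libraries, and at -0.0948 to 0.216 between differently numbered ones. With 3 libraries per diet, these values cannot show whether the replicate numbers pair the libraries. With the number as a replicate block, 1706 genes were higher and 4087 lower, and Cdkn1c had a limma adjusted p of 0.0536.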

Other observations

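Dlk1, a paternally expressed gene of another imprinted cluster, was under the filter and had 0.596, 0.438 and 0.409 FPKM in SGFD libraries, against 0.168, 0.130 and 0.349 FPKM in CD libraries. Its recovered fragments came to 217 over the SGFD libraries and 95 over the CD libraries. Of the other imprinted genes, 15 were at 0 in all 6 libraries, among them Rtl1, Dio3, Calcr and Slc38a4. These genes were picked after their values had been seen and were not tested.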
